A study of Mus musculus with 8 samples.

Results

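The Nodal pathway was described at the RNA level through 10 genes: Nodal, Lefty1, Lefty2, Tdgf1, Smad2, Smad3, Smad4, Smad7, Acvr2b and Skil. They were chosen by name, and their names were looked up among the row names of the deposited table, where all 10 of 10 were found among 17597 genes. The table also held 1097 transposable element subfamilies. Within a study of X inactivation, this RNA-seq experiment asked which transcripts change when METTL3, the catalytic subunit of the m6A writer complex, is removed within hours rather than by long-term knockout. RNA was sequenced from mouse embryonic stem (mES) cells of a Cast x 129S background in which METTL3 carried the FKBP12F36V degron tag, which the small molecule dTAG-13 directs to degradation. There were 8 libraries in 2 groups of 4, untreated and dTAG-13 for 26 h. Each group held 2 libraries of clone C3 and 2 of clone H5, and each line is the progeny of 1 cell clone. All 8 carried a TetOn promoter in place of the endogenous Xist promoter and were grown without doxycycline on mitomycin-inactivated mouse fibroblast feeders. The labels place that promoter on the 129S allele and the study's text on the castaneus X chromosome. The labels name the molecule as total RNA, as do the methods, but their extraction text describes chromatin RNA.

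Only 1 value per gene could be used, a mean of normalised read counts that, from its column name, was taken as the authors' mean over all libraries and so pools untreated and dTAG-13-treated cells. The 5 other columns hold the authors' own comparison and were not used. The levels below are therefore descriptions with no SD, no per-library value and no test, and no effect of METTL3 depletion is given for any gene. A difference between genes cannot be set against the spread between libraries here.

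Nodal is a secreted ligand of the TGF-β family. It binds type I and type II activin receptors together with a membrane-anchored coreceptor of the EGF-CFC family, and the receptors phosphorylate SMAD2 and SMAD3. These join SMAD4, enter the nucleus and act on target genes with partners such as FOXH1. The Lefty proteins are secreted antagonists that are themselves induced by the pathway, which makes a feedback loop. In pluripotent cells the pathway is known for priming towards mesendoderm, and SMAD2/3 is known to bind the m6A writer complex.

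The m6A writer complex methylates adenosine in a short context, of which GGACT, written as DNA, is a common form. The stretches below are shown because they place that context in the members' own transcripts. For 7 of the genes, the GGACT nearest to the end of the coding sequence whose surrounding 25 bases lie in 1 exon was taken from GENCODE vM21 transcripts (GRCm38, the assembly of mm10). Capitals mark the motif.
Nodal (chr10:61423558-61423582, plus strand): agttccaggtGGACTtcaacctgat
Lefty1 (chr1:180935272-180935296, plus strand): tcgcacgtgaGGACTcagtatgtgg
Lefty2 (chr1:180898119-180898143, plus strand): accatgtcagGGACTgcccacagca
Tdgf1 (chr9:110940769-110940793, minus strand): aaagcatccgGGACTccgtgtcaaa
Smad3 (chr9:63648765-63648789, minus strand): gatggtctgtGGACTgctgcttcag
Acvr2b (chr9:119433382-119433406, plus strand): gcactacctcGGACTgtctcgtctc
Skil (chr3:31118597-31118621, plus strand): agccctccaaGGACTaagagctgaa

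The Nodal, Lefty1, Tdgf1 and Acvr2b motifs lay in coding sequence, starting 279, 931, 76 and 66 nt before the last coding base. The Skil motif started 3 nt before the last coding base and ended on the first base of the stop codon. The stop codon is counted here with the 3′ UTR, not the coding sequence. The Lefty2 and Smad3 motifs lay in the 3′ UTR, starting 319 and 1486 nt after the last coding base. A match is a sequence description and no measurement of methylation.

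Tdgf1, the EGF-CFC coreceptor also called Cripto, had the highest level of the 10 genes, at a mean normalised count of 8992 and 4654 per kb of its longest coding transcript. Acvr2b, a type II activin receptor, had the lowest, at a mean normalised count of 219 and 69.1 per kb. The level of Tdgf1 was 67.4 times that of Acvr2b per kb of transcript and 128 times per kb of coding sequence. All 10 genes lay above the median mean normalised count of all genes, which was 170, and 6 of 10 reached 1000, against 20.6% of all genes. Together the 10 genes held 0.143% of the normalised gene counts. In bulk RNA, fewer cells of a type and less RNA per cell cannot be told apart.

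**Figure D1:**
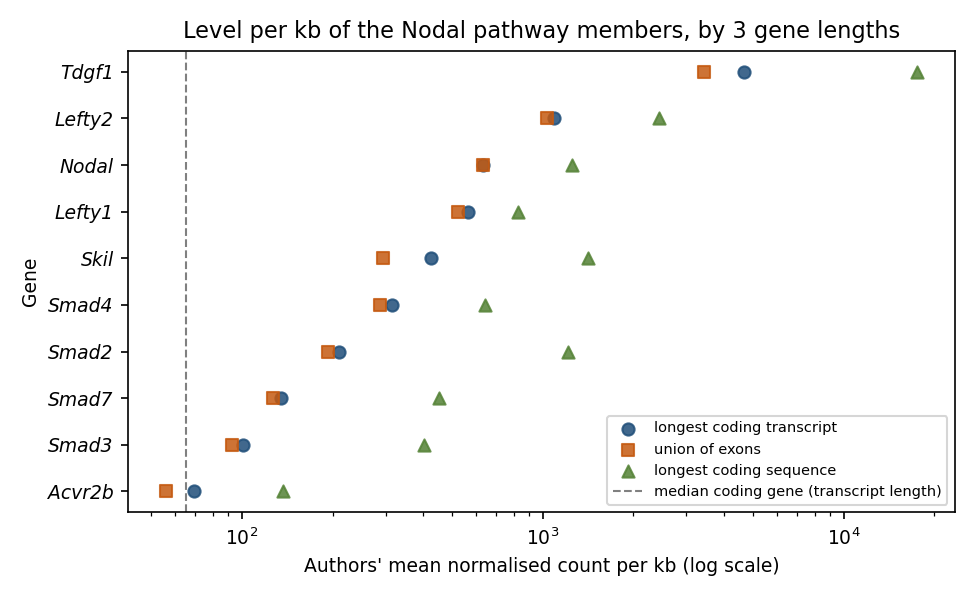
Each point is the authors' mean normalised count of 1 gene per kb, on a log scale, with length taken as the longest coding transcript (circles), the union of exons (squares) or the longest coding sequence (triangles), and the dashed line is the median coding gene by transcript length. Tdgf1 lies highest, at 4654 by transcript length, and Acvr2b lowest, at 69.1, with all 3 lengths.

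Among the ligand and its secreted inhibitors, Nodal (chr10:61417972-61425338) had a mean normalised count of 1324, or 632 per kb of transcript. Lefty2 (chr1:180893108-180899103) had a mean normalised count of 2689, or 1087 per kb. Lefty1 (chr1:180935022-180938400) had a mean normalised count of 915, or 565 per kb. Lefty2 was therefore 1.93 times Lefty1 per kb of transcript. The ratio was 2.94 per kb of coding sequence, since both coding sequences are 1104 nt long and the Lefty2 3′ UTR is longer, at 1293 nt against 428 nt. The levels per kb of both Lefty genes summed to 2.61 times that of Nodal.

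Lefty1 and Lefty2 are neighbours on the plus strand of chromosome 1, 35918 nt apart, and their coding sequences were identical at 91.8% of 1104 aligned positions, with a longest identical run of 140 nt. This bears on the counts, because, per its methods, the study kept only uniquely aligned pairs of 81-base reads. Of all 81-base stretches of the Lefty1 transcript 9.68% also occurred in Lefty2, and 6.23% of those of Lefty2 occurred in Lefty1. With stretches of 50 bases the shares were 17.9% and 11.6%. A pair lying wholly in such stretches would not have been counted, and the loss falls on a larger share of the shorter Lefty1 transcript. The Lefty2 to Lefty1 ratio is uncertain to that extent, which was not tested.

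The coreceptor Tdgf1 (chr9:110939603-110946158) lay at percentile 99.0 of coding genes by level per kb. Its level was 7.36 times that of Nodal and 4.28 times that of Lefty2, the next gene in the order. Per kb of coding sequence these ratios were 14.1 and 7.20. In its transcript 7.72% of 81-base stretches also occurred in the pseudogene Tdgf1-ps1, and 12.5% of 50-base stretches did. The other EGF-CFC coreceptor, Cfc1, had a level of 42.8 per kb, and the betaglycan gene Tgfbr3, a TGF-β coreceptor, had 9.75 per kb.

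Among the receptors, Acvr2b (chr9:119402118-119434995) and its paralog Acvr2a both had a level of 69 per kb, at 69.1 and 69.2. Tgfbr2, the type II receptor of TGF-β itself, had 4.46 per kb. Among type I receptors, Acvr1b, which carries the Nodal and activin signal, had 64.4 per kb, and Tgfbr1, which carries the TGF-β signal, had 221 per kb, 3.43 times as much. Acvr1c, the other type I receptor of Nodal, was not found under that name or an older symbol and was not analysed here. Whether its RNA was absent was not tested. Acvr2b and Acvr1b thus lay close to the median of all coding genes, at 65.2 per kb. Both lay below the median of coding genes with a mean normalised count of at least 10, at 120 per kb.

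The SMAD genes followed a different order by count and by length. Smad2 (chr18:76241580-76310963), a receptor-activated SMAD, had a mean normalised count of 1694, or 209 per kb. Smad3 (chr9:63646767-63757994), the other receptor-activated SMAD, had a mean normalised count of 515, or 101 per kb, so that Smad2 was 2.07 times Smad3 per kb of transcript. Their coding sequences were identical at 77.1% of 1275 aligned positions, and neither shared an 81-base stretch with another gene's transcript. Smad4 (chr18:73639009-73703780), the common partner of both, had a mean normalised count of 1064, or 314 per kb. Smad4 was 1.50 times Smad2 per kb of transcript but 0.532 times Smad2 per kb of coding sequence, so their order turned with the length used. The Smad2 transcript carries a 3′ UTR of 6236 nt and that of Smad4 one of 1252 nt, each counted with the stop codon.

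Smad7 (chr18:75367529-75395935), an inhibitory SMAD that blocks the activated receptor, had a mean normalised count of 575, or 135 per kb. The other inhibitory SMAD, Smad6, had 42.8 per kb. For the SMADs of the BMP branch, Smad5 had 118 per kb, Smad1 had 61.3 and Smad9 had 2.54. Skil (chr3:31095058-31122577), which encodes the SMAD corepressor SnoN, had a mean normalised count of 2850, second only to Tdgf1 among the 10 genes. Its transcript is 6717 nt long, which brought it to 424 per kb and the fifth place by length. With coding sequence alone it took the third place, at 1407 per kb.

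The order per kb of transcript was Tdgf1, Lefty2, Nodal, Lefty1, Skil, Smad4, Smad2, Smad7, Smad3 and Acvr2b, and it was the same with the union of exons. Per kb of coding sequence 5 of the 10 genes took another place, in the order Tdgf1, Lefty2, Skil, Nodal, Smad2, Lefty1, Smad4, Smad7, Smad3 and Acvr2b. Without a spread over libraries it cannot be said which neighbours in that order differ. All 10 genes lay above the median coding gene by level per kb, and 8 did when only genes with a mean normalised count of at least 10 were ranked. Smad3 and Acvr2b were then below it, at percentiles 46.2 and 38.5.

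The list of the wider pathway held 49 genes, of which 48 were found and 33 had a mean normalised count of at least 100. That is 68.8% of those found, against 56.3% of all genes. The 48 include the 10 described genes, all of which reached 100. Without them 23 of 38 did, or 60.5%. The highest ligand was Gdf3, a TGF-β family ligand that also signals through activin receptors, at 1186 per kb, or 1.88 times Nodal. Of the ligands, 3 of 8 reached a count of 100 and the lowest was the activin subunit gene Inhba, at 0.124 per kb. Pcsk6, a proprotein convertase that cleaves the Nodal precursor, had 126 per kb.

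All 4 nuclear partners, all 4 corepressors and all 4 ubiquitin ligases of the list reached a mean normalised count of 100. The highest of each were Drap1, which binds FOXH1, at 658 per kb, the TG-interacting corepressor gene Tgif1 at 1063 per kb, and Smurf2, which ubiquitinates SMADs and receptors, at 182 per kb. Of 5 genes listed as targets, 2 reached 100. The highest was Eomes, a mesendoderm transcription factor, at 86.4 per kb, and the lowest was Mixl1 at 3.45 per kb. On the same scale Lefty1 and Lefty2, which are also targets of the pathway, were at 565 and 1087.

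**Figure D2:**
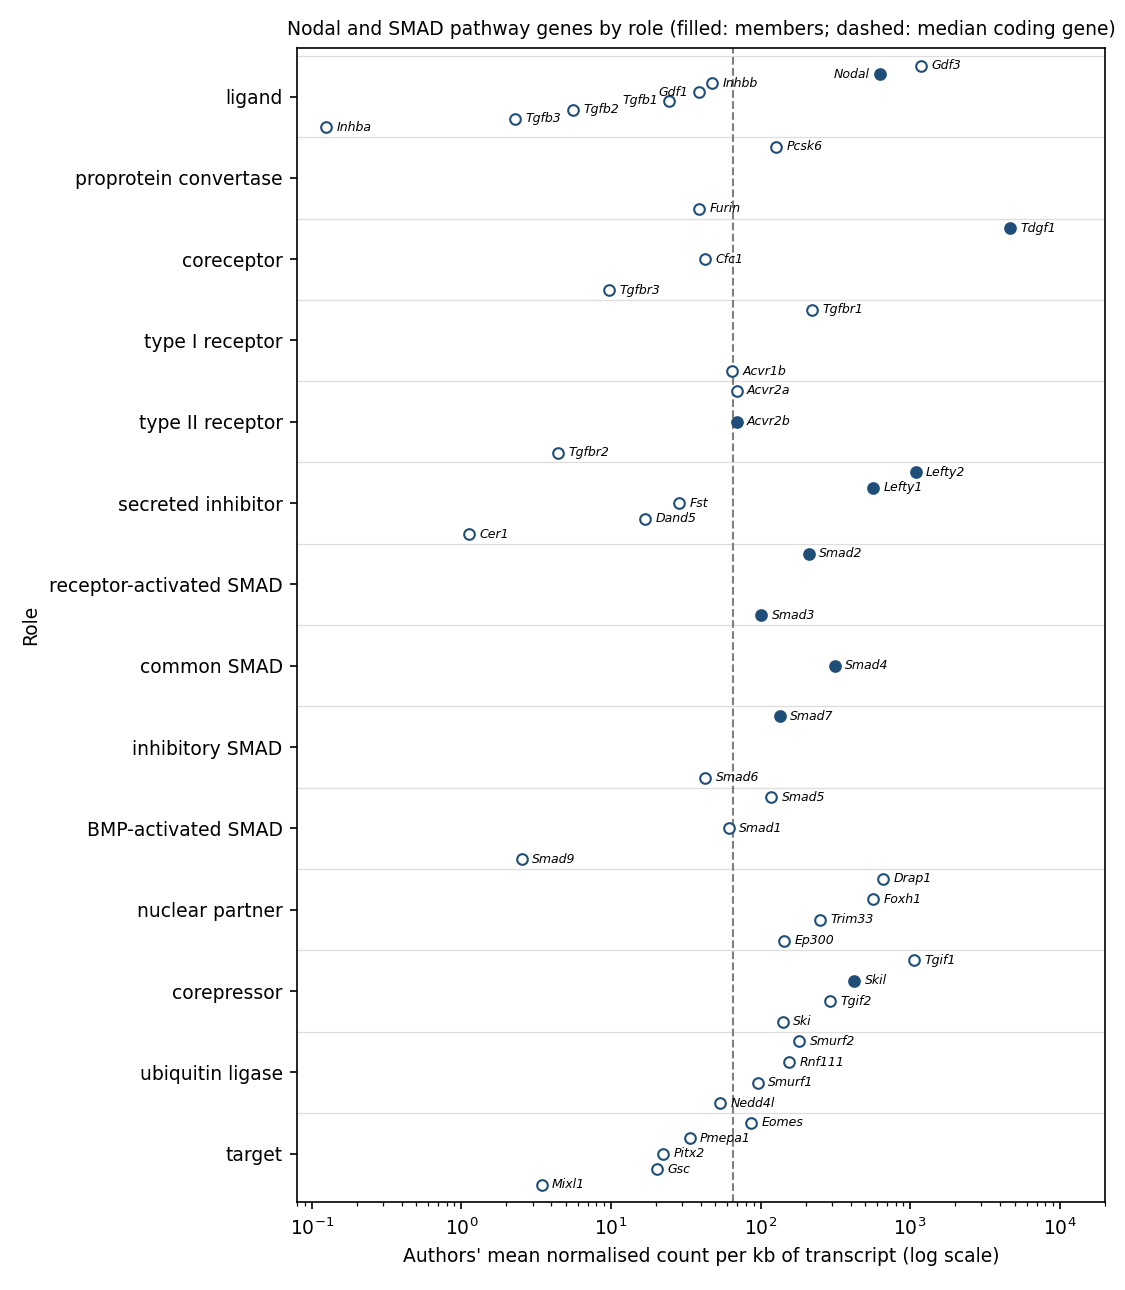
Each point is 1 gene of the wider pathway list, with its mean normalised count per kb of transcript on a log scale and its role on the vertical axis; filled points are the 10 described genes and the dashed line is the median coding gene. Tdgf1 lies farthest right, at 4654, and the listed targets lie between 3.45 and 86.4.

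The cell type markers bear on what these levels average over. All 9 mES cell markers had a mean normalised count of at least 1000, with levels from 224 to 16142 per kb, led by Dppa5a at 16142 and Pou5f1 at 8762 per kb. Of 12 fibroblast markers 6 reached 100, with levels from 0.240 to 1327 per kb, led by Sparc at 1327 and Vim at 945 per kb. The other markers that reached 100 were Fn1 at 594, Tagln at 217, Thy1 at 66.8 and Acta2 at 50.8 per kb. The remaining 6, Col1a1, Col1a2, Col3a1, Postn, Lum and Dcn, lay between 0.240 and 4.27 per kb. Of 7 mesendoderm markers 1 reached 100, with levels from 0.952 to 49.3 per kb, led by T at 49.3 and Foxa2 at 11.3 per kb. All 8 m6A writer genes reached 100, with levels from 80.0 to 1514 per kb, led by Wtap at 1514 and Rbm15 at 370 per kb. The part of feeder RNA in any member's level was not tested.

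The 10 transcripts held 36 GGACT motifs, 2 in 5′ UTRs, 16 starting in coding sequence and 18 in 3′ UTRs. Per kb of transcript, 5 of 10 genes had more than the median of 1.05 over coding genes with a mean normalised count of at least 10. Nodal had the most, at 1.91 per kb from 4 motifs, and Tdgf1 had 1.55 per kb from 3. Smad3 had the fewest, at 0.393 per kb from 2 motifs, both in its 3′ UTR. Smad2 had the most motifs in number, at 6, of which 5 lay in its long 3′ UTR, but 0.742 per kb. Lefty1 and Lefty2 each had a motif that started 369 nt before the last coding base.

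**Figure D3:**
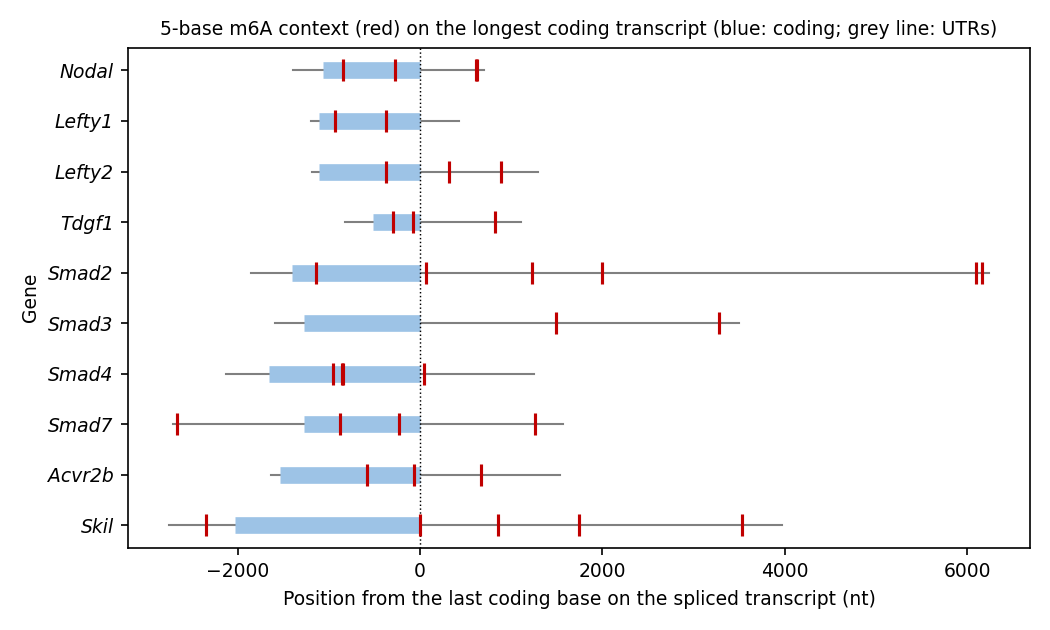
The longest coding transcript of each gene is drawn to scale in nt from its last coding base, with coding sequence in blue, UTRs as a grey line and each of the 36 GGACT motifs as a red tick. Motifs of Smad2 reach 6165 nt into the 3′ UTR, while the Lefty1 transcript has both of its 2 motifs in coding sequence.

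The genes also differed in exon structure, which is of interest because m6A is known to be sparse near exon junctions and frequent in long exons. Exon numbers ran from 3 in Nodal to 12 in Smad4, and 6 of 10 genes had fewer exons than the median of 9. This median is over coding genes with a mean normalised count of at least 10, of which 47.2% had fewer than 9 exons. Skil had the longest internal exon, at 1717 nt, and Nodal the next, at 716 nt, against a median of 218 nt among those coding genes. Smad7 had the shortest, at 75 nt. This measure leaves out first and last exons, which can be long. Smad7 has 4 exons in 4278 nt, so most of its transcript lies in its first and last exons. No sharing of exonic bases with another annotated gene was found for any of the 10.

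**Figure D4:**
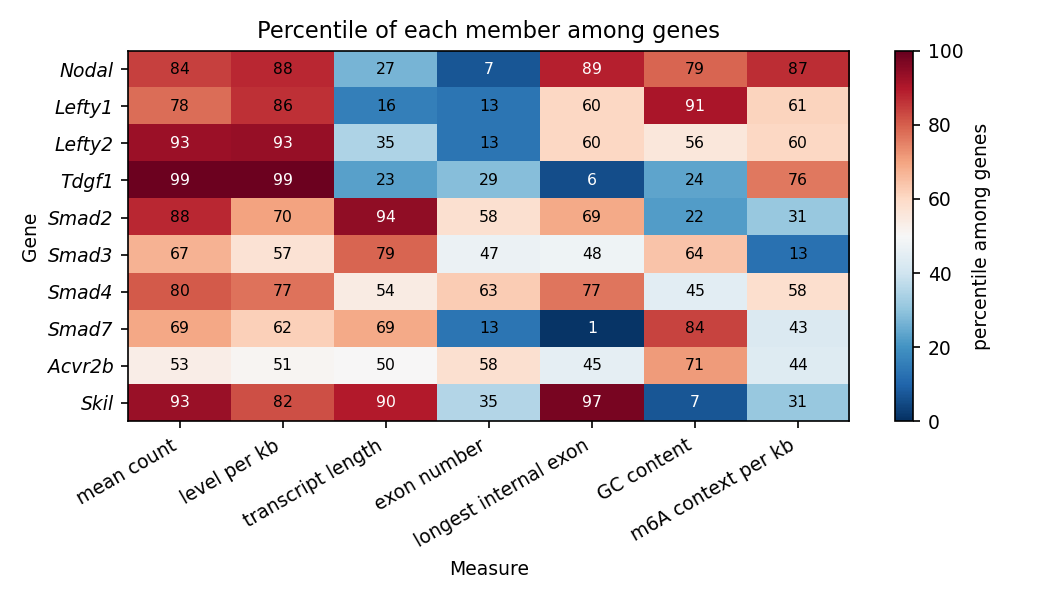
Each cell gives the percentile of 1 gene for 1 measure, with mean count ranked among all genes, level per kb among all coding genes and the other measures among coding genes with a mean normalised count of at least 10. Tdgf1 lies at percentile 98.9 by mean count. For the longest internal exon, which leaves out first and last exons, Skil lies at 97.4 and Smad7 at 0.845.

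Upstream windows of 4 of the genes were used. The 250 bases before the annotated start of Tdgf1 and Smad3 are shown (RefSeq, GRCm38.p6). These genes have the highest and the second lowest level per kb of the 10. Acvr2b, the lowest, also had a window, which is not printed. Capitals mark CG dinucleotides.
Tdgf1 (chr9:110946159-110946408, minus strand): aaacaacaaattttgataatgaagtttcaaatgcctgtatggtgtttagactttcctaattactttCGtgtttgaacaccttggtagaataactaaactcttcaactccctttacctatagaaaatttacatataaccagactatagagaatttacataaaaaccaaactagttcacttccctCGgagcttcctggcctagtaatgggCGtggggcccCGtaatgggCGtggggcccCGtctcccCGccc
Smad3 (chr9:63757995-63758244, minus strand): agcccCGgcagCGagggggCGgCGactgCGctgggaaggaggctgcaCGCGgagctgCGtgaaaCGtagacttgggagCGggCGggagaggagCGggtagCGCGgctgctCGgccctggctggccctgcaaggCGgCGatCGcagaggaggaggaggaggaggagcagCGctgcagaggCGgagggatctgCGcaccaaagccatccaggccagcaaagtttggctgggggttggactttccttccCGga

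The Tdgf1 window held 7 CG dinucleotides and 42.0% G and C, and that of Smad3 held 22 and 69.2%, against medians of 6 and 52.4% over 32851 promoters. Those of Acvr2b and Nodal held 24 and 3 CG dinucleotides. The Acvr2b window ends at 119402177, inside the GENCODE span of that gene, which starts at 119402118. On either strand, the 5-letter SMAD box CAGAC was found upstream of Tdgf1 and Acvr2b and in 42.2% of all promoters. The FOXH1 forms AATCCACA and AATACACA, held by 0.718% and 0.895% of promoters, the palindrome GTCTAGAC, held by 0.167%, and TATAAA, held by 12.4%, were in none of the 4 windows. The CAGAC letters are part of no other motif searched.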

How the data were processed

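Total RNA from 8 libraries was sequenced as 81-base read pairs after ribosomal RNA depletion with a stranded kit. According to the methods, the authors discarded ribosomal reads with bowtie2, aligned the rest to N-masked mm10 with STAR keeping unique alignments, removed duplicates with Picard and counted genes and transposable element subfamilies with TEtranscripts. The deposited table holds 1 mean signal per feature, which from its column name is the mean of counts divided by size factors, and whose gene rows sum to 14573411. It also holds 5 columns of the authors' own comparison (fold change, its error, statistic, p-value and adjusted p-value), which were not used. Depth per library is unknown, so no interval is given.

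Gene names were matched to GENCODE vM21, 16660 directly and 691 by an older symbol, and 17333 of 17597 genes (98.5%) had a usable model. The mean was divided by the length of the longest protein-coding transcript. The study states that its gene annotation came from UCSC. Counts and lengths can therefore rest on different exons, and the effect on levels per kb was not tested. Coding sequence lengths leave out the stop codon, and all 3′ UTR lengths include it. Percentiles count genes with a lower value. Shares and percentiles over all genes refer to the 17597 genes that had a value. Motifs were counted on the transcript strand, coding sequences were aligned globally and stretches were compared on both strands (Python 3.11.15, pandas 2.3.3, Biopython 1.88, matplotlib 3.10.9). Motif counting was tested on simulated sequences. Reverse complements were tested only for giving back the original sequence when repeated, and merged exon lengths on a written example. The other steps were not tested.

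The genes and lists were chosen with earlier results of these data known. All 10 genes are named. From the wider list, the gene highest per kb in each role and those sharing a receptor, coreceptor or SMAD role are named, and from each marker list the 2 highest. Inhba, Mixl1 and the fibroblast markers other than Sparc and Vim were named after their values were seen. Alternatives were other gene lengths, other count minimums, another motif and a shorter stretch. The repeat search was planned against the genome, which was not used here, and was run against annotated transcripts, a choice made after seeing the data.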

Additional observations from a re-analysis of the deposited data

How the results depend on the processing

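No paired analysis was possible because only a mean over libraries was used, and for the same reason no library could be left out. The ratio of Tdgf1 to Acvr2b per kb was 67.4 with transcript length, 61.4 with the union of exons and 128 with coding sequence, where the short Tdgf1 coding sequence, at 513 nt, raises its level. The number of wider pathway genes with a mean normalised count of at least 100 was 33, and it was 44 at a minimum of 10 and 11 at a minimum of 1000. By mean count, 7 of the 10 genes lay above the 75th percentile of all genes and 5 did among genes with a count of at least 10. The number of genes with more motif per kb than the median was 5 with GGACT, 7 with GGAC and 6 in coding sequence. With stretches of 81 and of 50 bases alike, 3 genes had over 1% of stretches in transcripts of other genes, but their shares went from 9.68% to 17.9% for Lefty1, from 6.23% to 11.6% for Lefty2 and from 7.72% to 12.5% for Tdgf1. This setting was chosen after seeing the data. The genome-wide search for repeats was not run. Depth per library is unknown.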
